A study of Mus musculus with 12 samples.

Results

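Oxidative phosphorylation genes were described in Ocy454 cells, a mouse osteocyte-like line, by complex and by the genome that encodes them. The members were the protein-coding genes whose symbols begin with Ndufa, Ndufb, Ndufc, Ndufs, Ndufv, Sdha to Sdhd, Uqcr, Cox4 to Cox8 or Atp5, plus the 13 protein-coding genes of mitochondrial DNA. This rule, which used no measured value, gave 107 members among 35214 genes, of which 94 were nuclear and 13 mitochondrial. Complex I had 46 nuclear and 7 mitochondrial members, complex II 4 nuclear, complex III 8 and 1, complex IV 18 and 3, and complex V 18 and 2. The rule also took in 8 Ndufaf assembly factors of complex I and Atp5s, a coupling factor that is not a core subunit, so 98 members were subunits. It left out Cyc1, which was read among the related genes.

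All cells came from this 1 line, were grown to confluence at 33C and had differentiated for 5 days at 37C. Each of 4 groups of 3 libraries was pretreated for 1 h and treated for 48 h, and polyadenylated RNA was taken on differentiation day 7. The DMSO group received vehicle alone. The DMSO+FGF2 group received vehicle and 2 ng/mL FGF2, a growth factor that signals through the FGF receptor kinases. The BGJ398 group received 200 nM BGJ398, an inhibitor of those kinases, without FGF2. The BGJ398+FGF2 group received both. The design asked what FGF2 changed and how much of it remained under receptor inhibition. No label says whether the triplicates were separate cultures, so the spread behind every p-value may be technical.

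Libraries held 18951710 to 27716975 reads. Nuclear members took 0.734% to 0.888% of them and mitochondrial members 1.70% to 2.11%. Of 16 osteoblast and osteocyte markers 12 could be tested, while Sost and Mepe were at 0 reads and Fgf23 had under 12 reads in all, so these late osteocyte markers were absent or nearly so. The 5-gene marker lists of other cell types summed to at most 2.31 TPM for adipocytes, 9.27 for chondrocytes, 1.71 for muscle, 11.5 for macrophages and 0.489 for endothelium. Acan, Adipoq, Myod1, Ptprc, Adgre1 and Cdh5, defining markers among these, each had under 12 reads over the 12 libraries. The macrophage sum was 3.97 to 5.99 TPM in DMSO and 10.3 to 11.5 TPM in DMSO+FGF2. The chondrocyte sum was 5.27 to 5.46 and 8.73 to 9.27 TPM. Both sums were higher with FGF2, but the genes in each list did not move together. Of 3 tested macrophage markers only Cd68 passed the edgeR test described below (log2 fold change 1.94 ± 0.22 SE), and the median was −0.75. Of 2 tested chondrocyte markers only Sox9 passed (0.84 ± 0.11), with a median of −0.045. The part of such cells in the results was not tested.

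The respiratory chain passes electrons from NADH (complex I) and succinate (complex II) through complex III to oxygen at complex IV, and ATP synthase (complex V) uses the proton gradient this builds. Complexes I, III, IV and V combine subunits encoded in the nucleus with a few encoded in mitochondrial DNA, and complex II is wholly nuclear. Several complex IV subunits exist as paired isoforms with tissue-restricted or oxygen-dependent expression. Maturing osteoblasts use both glycolysis and oxidative phosphorylation.

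Transcript levels are given first per length, as TPM averaged over the 12 libraries. The 79 tested nuclear subunits had a median of 228 TPM, against 25.1 TPM for all 12542 tested genes. Among nuclear subunits the median was 170 TPM in complex I, 135 in complex II, 262 in complex III, 295 in complex IV and 371 in complex V. Mitochondrially encoded subunits stood higher, with medians of 2934 TPM in complex I and 9201 in complex IV, 4903 TPM for mt-Cytb of complex III, and 12322 TPM for mt-Co1, the catalytic subunit of cytochrome c oxidase. Levels thus differed widely within a complex as well as between complexes. Within complex V, Atp5b, the catalytic beta subunit, had 2606 TPM and Atp5a1, the alpha subunit, 366 TPM. Complex II was the most even of the nuclear sets, from 101 TPM for Sdha, the flavoprotein subunit, to 255 TPM for Sdhc, a membrane anchor.

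**Figure D1:**
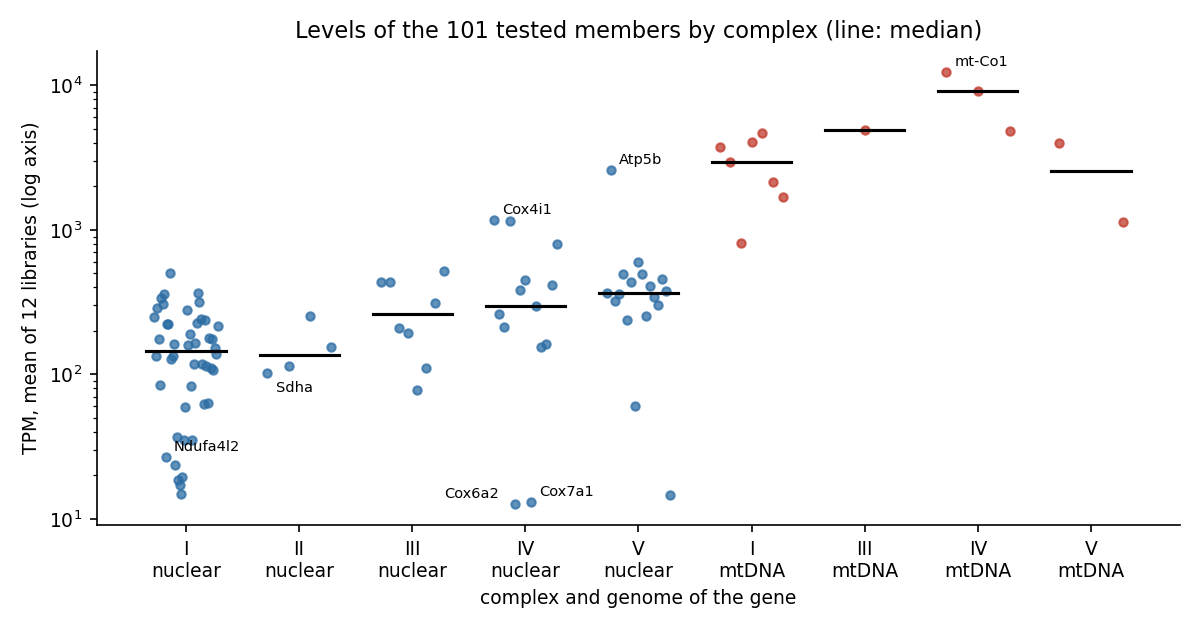
Level of each of the 101 tested members (points, TPM averaged over 12 libraries, log axis) by complex and genome, with the median of each column as a line, assembly factors and Atp5s included. Blue points are nuclear genes and red points are mitochondrial genes. Most mitochondrial genes lie above the nuclear ones, and Cox6a2 and Cox7a1 are the lowest nuclear subunits.

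The complex IV isoform pairs were used unequally. Cox4i1, the ubiquitous form of subunit IV, had 1171 TPM, while its hypoxia-associated partner Cox4i2 had 0 reads in all 12 libraries. Cox6a1 had 1146 TPM against 12.7 TPM for Cox6a2, the form best known from heart and skeletal muscle. Cox7a2 had 295 TPM against 13.1 TPM for Cox7a1, also a muscle form. The related Cox7a2l, which takes part in supercomplex assembly, had 154 TPM, or 370 TPM with the TPM of its partial copy Gm6969 added. That copy held only 12.6% of the reads of the pair, and its TPM were divided by its own length. Cox8a had 796 TPM, and the muscle form Cox8b had 8 reads in all. Cox6b1 had 384 TPM, against 2 reads in all for the testis form Cox6b2. Ndufa4, first described in complex I, where its symbol places it here, and since assigned to complex IV, had 362 TPM, and its paralog Ndufa4l2, known as a hypoxia-induced gene, 26.9 TPM. The ubiquitous isoform was therefore the more abundant one in each of these pairs. In all, 6 members had too few reads to be tested, from 0 to 8 reads over all libraries: Cox4i2, Cox6b2, Cox7b2, Cox8b, Cox8c and a second identifier of Atp5o. The other 101, of which 88 were nuclear and all 13 mitochondrial genes were measured, entered the tests.

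Levels summed over a complex are given here for nuclear complexes I and II and for the mitochondrial genes of complexes IV and V. Nuclear complex I members summed to 7339, 7537 and 7519 TPM in DMSO, 7222, 7633 and 7143 in DMSO+FGF2, 8189, 7179 and 7278 in BGJ398, and 7183, 8005 and 6855 in BGJ398+FGF2. These 4 ranges overlapped. Complex II, the smallest, gave 607, 611 and 621 TPM in DMSO, 575, 600 and 568 in DMSO+FGF2, 636, 648 and 673 in BGJ398, and 663, 662 and 655 in BGJ398+FGF2. Here the 3 DMSO+FGF2 libraries lay below all others on this scale. The mitochondrial complex IV genes summed to 24510, 25860 and 24609 TPM in DMSO, 25860, 25815 and 25691 in DMSO+FGF2, 26270, 25960 and 25846 in BGJ398, and 27964, 28758 and 28740 in BGJ398+FGF2, so the last group lay above the others. In CPM with nuclear copies added, described further on, the BGJ398+FGF2 libraries had 12016, 12722 and 10645 CPM and overlapped the 10724, 10764 and 10745 CPM of DMSO+FGF2. On CPM, which are not divided by length, the complex II ranges of DMSO and DMSO+FGF2 overlapped. The mitochondrial complex V genes had means of 6817 TPM in DMSO, 5386 in DMSO+FGF2, 4364 in BGJ398 and 4041 in BGJ398+FGF2. The DMSO mean held 1 library at 10325 TPM beside 5163 and 4962.5. In CPM with copies added, the means were 1743, 1799.5, 1976 and 2165 in the same order, so the direction turned with the measure.

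By library, in CPM (reads scaled to library size), the abundant isoforms of complex IV gave these values. Cox4i1, the ubiquitous subunit IV, had 358, 399 and 377 CPM in DMSO, 410.1, 474 and 416 in DMSO+FGF2, 449, 339.6 and 336 in BGJ398, and 347, 435 and 337 in BGJ398+FGF2. Cox6a1, the ubiquitous partner of Cox6a2, had 229, 248 and 257 CPM in DMSO, 234, 283 and 215 in DMSO+FGF2, 301, 218 and 221 in BGJ398, and 218, 272 and 225 in BGJ398+FGF2. Cox7a2, the ubiquitous partner of Cox7a1, had 69.6, 74.1 and 73.4 CPM in DMSO, 73.0, 80.4 and 74.3 in DMSO+FGF2, 85.1, 71.7 and 76.4 in BGJ398, and 71.7, 90.8 and 77.7 in BGJ398+FGF2. With FGF2 in DMSO, libraries lay above those of DMSO for Cox4i1 and overlapped them for Cox6a1 and Cox7a2. With both agents, libraries overlapped those of DMSO+FGF2 for Cox4i1, Cox6a1 and Cox7a2. Cox7a2l had 76.8, 84.5 and 79.6 CPM in DMSO, 81.1, 98.3 and 87.8 in DMSO+FGF2, 87.2, 71.0 and 72.7 in BGJ398, and 72.9, 96.8 and 72.0 in BGJ398+FGF2. Cox8a had 152, 172 and 169 CPM in DMSO, 159, 189 and 160.4 in DMSO+FGF2, 180.1, 154 and 148 in BGJ398, and 143, 175 and 144 in BGJ398+FGF2. Cox6b1 had 82.5, 86.3 and 83.8 CPM in DMSO, 86.0, 99.7 and 84.8 in DMSO+FGF2, 99.9, 78.0 and 75.8 in BGJ398, and 74.4, 93.2 and 71.8 in BGJ398+FGF2. With FGF2 and vehicle, libraries overlapped those of DMSO for Cox7a2l, Cox8a and Cox6b1. Under BGJ398 with FGF2, libraries overlapped those of DMSO+FGF2 for Cox7a2l, Cox8a and Cox6b1.

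The first comparison asked what FGF2 changed with its receptors uninhibited. FGF2 left most members within the spread between libraries: 3 of 101 members rose and 2 fell (edgeR quasi-likelihood test, Benjamini-Hochberg adjusted p under 0.05 over all tested genes), while 13.4% of all tested genes passed, 7.57% higher and 5.82% lower. At an unadjusted p under 0.05, 9 members passed, beside 26.1% of all tested genes. The median log2 fold change was 0.02 for nuclear members and −0.04 for mitochondrial members, and -0.00 for all genes. Counting each gene, 4.95% of the members were called. None of the 13 mitochondrial genes was called, and at an unadjusted p under 0.05 none of them passed either. By complex, 2 of 46 nuclear complex I members rose and 1 fell, 1 of 13 tested nuclear complex IV members rose and 1 fell, and none of the 4, 8 and 17 tested nuclear members of complexes II, III and V passed.

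Ndufa4l2 had the largest change. It stood at 9.45, 8.78 and 8.44 CPM in DMSO and at 19.6, 26.7 and 21.4 CPM in DMSO+FGF2. In BGJ398 it had 8.76, 7.25 and 6.46 CPM, and in BGJ398+FGF2 7.28, 11.1 and 7.20 CPM. All 3 DMSO+FGF2 libraries lay above the 9 others, which overlapped each other. The log2 fold change with FGF2 in DMSO was 1.34 ± 0.16 (SE, n = 3 per group, adjusted p = 0.000105 by edgeR). Ndufa4, the paralog, moved the other way: 63.9, 66.5 and 72.8 CPM in DMSO fell to 52.7, 61.5 and 49.7 CPM in DMSO+FGF2, a log2 change of −0.31 ± 0.09 (adjusted p = 0.0424 by edgeR), with no overlap between the groups. The Ndufa4 call was lost under 8 of 26 other settings, each leaving out 1 library (DMSO replicate 1, 2 or 3, DMSO+FGF2 replicate 1 or 3, BGJ398 replicate 2 or 3, or BGJ398+FGF2 replicate 1). The Ndufa4l2 call held under all 26.

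The low-level isoforms of complex IV gave calls that rested on few reads. Cox7a1 had 302 reads in 12 libraries. Its levels were 1.31, 1.05 and 0.821 CPM in DMSO and 2.15, 2.13 and 2.09 CPM in DMSO+FGF2, a log2 change of 1.01 ± 0.26 (adjusted p = 0.0197 by edgeR). Cox6a2 had 919 reads in all, with 3.13, 4.65 and 4.49 CPM in DMSO and 2.54, 2.39 and 1.57 CPM in DMSO+FGF2, a log2 change of −0.92 ± 0.22 (adjusted p = 0.0141 by edgeR). For both genes the groups did not overlap, as was so for 37.6% of all tested genes. So of these 2 low-level complex IV isoforms 1 rose and 1 fell, and their abundant partners Cox7a2 and Cox6a1 had log2 values of 0.07 ± 0.08 and −0.01 ± 0.13, neither past the test. The calls of Cox7a1 and Cox6a2 were lost under 8 and 3 of the 26 other settings. Leaving out DMSO replicate 2 or 3 lost both, leaving out DMSO+FGF2 replicate 1 or 2 lost that of Cox7a1, and leaving out DMSO+FGF2 replicate 3 lost that of Cox6a2. The other 4 settings that lost the Cox7a1 call all treated transcript length: length-scaled TPM, both kinds of length offsets, and offsets with the replicate block.

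**Figure D2:**
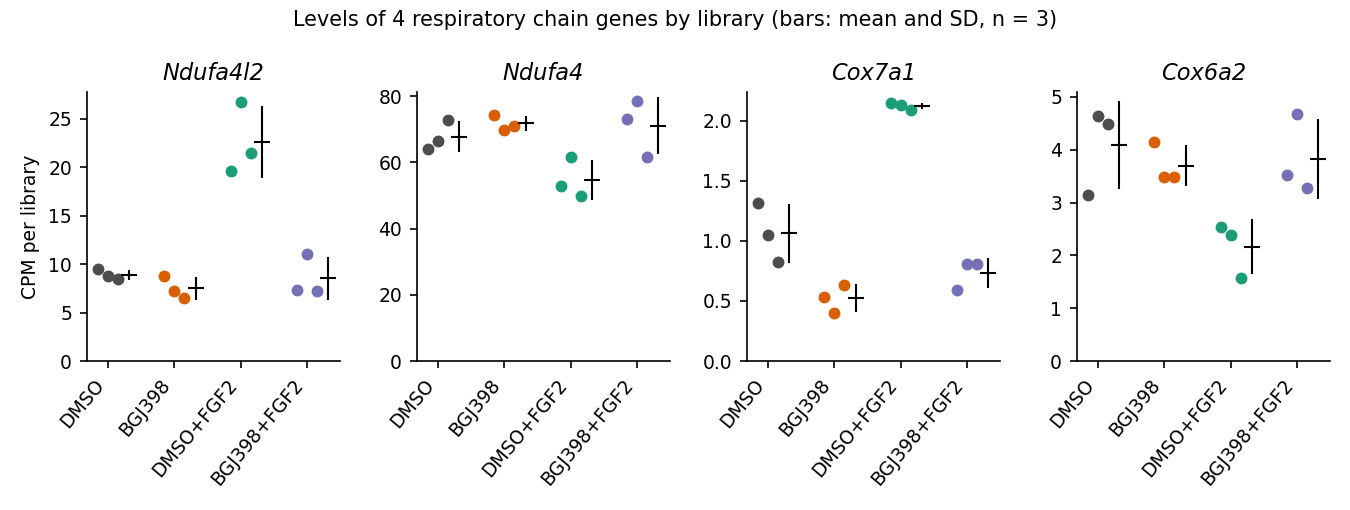
CPM of Ndufa4l2, Ndufa4, Cox7a1 and Cox6a2 in each of the 12 libraries (points), with the mean and SD of each group of 3 as bars on a linear axis from 0. The DMSO+FGF2 libraries are the highest for Ndufa4l2 (19.6 to 26.7 CPM) and Cox7a1 and the lowest for Ndufa4 and Cox6a2.

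Core genes of each complex had small log2 values with FGF2. The log2 values were −0.04 ± 0.05 for Ndufs1 and 0.10 ± 0.07 for Ndufv1 of complex I, −0.09 ± 0.06 for Sdha and −0.11 ± 0.06 for Sdhb of complex II, −0.02 ± 0.08 for Uqcrc1 and 0.06 ± 0.07 for Uqcrfs1, the iron-sulfur subunit of complex III. In complex IV, Cox4i1 had 0.20 ± 0.12, and in complex V, Atp5b had −0.05 ± 0.07 and Atp5a1 −0.00 ± 0.06. None of these passed the test, with adjusted p-values from 0.314 to 0.984 by edgeR. In all, 2 complex III members had unadjusted p-values under 0.05 and opposite signs, Uqcrc2, a core subunit, at −0.17 ± 0.07 and Uqcrh, the hinge subunit, at 0.17 ± 0.07 (adjusted p = 0.133 and 0.152 by edgeR).

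The libraries behind these core genes were as follows. Ndufs1, the largest iron-sulfur subunit of complex I, had 71.7, 70.9 and 74.991 CPM in DMSO, 70.3, 72.4 and 68.7 in DMSO+FGF2, 70.6, 72.5 and 76.7 in BGJ398, and 75.2, 75.7 and 70.2 in BGJ398+FGF2. Ndufv1, the NADH-binding subunit, had 119.0, 122.5 and 123.6 CPM in DMSO, 126.8, 140.2 and 123.7 in DMSO+FGF2, 131.3, 125.0 and 121.0 in BGJ398, and 112.1, 138.7 and 116.9 in BGJ398+FGF2. Atp5a1, the alpha subunit of ATP synthase, had 493, 498 and 524 CPM in DMSO, 491, 537 and 484 in DMSO+FGF2, 537, 488 and 489.5 in BGJ398, and 495, 545 and 485 in BGJ398+FGF2. With FGF2 in DMSO, libraries lay above those of DMSO for Ndufv1 and overlapped them for Ndufs1 and Atp5a1. The BGJ398+FGF2 libraries overlapped those of DMSO+FGF2 for Ndufs1, Ndufv1 and Atp5a1. Sdha, the flavoprotein of complex II, had 142.4, 142.4 and 147.7 CPM in DMSO, 133.3, 141.9 and 130.4 in DMSO+FGF2, 140.8, 137.5 and 138.1 in BGJ398, and 128.5, 147.1 and 127.5 in BGJ398+FGF2. Sdhb, its iron-sulfur subunit, had 68.1, 67.3 and 69.8 CPM in DMSO, 64.3, 66.6 and 59.4 in DMSO+FGF2, 80.1, 75.3 and 73.4 in BGJ398, and 70.5, 80.0 and 70.7 in BGJ398+FGF2. Atp5b, the catalytic beta subunit of ATP synthase, had 1108, 1186 and 1186 CPM in DMSO, 1102, 1196 and 1066 in DMSO+FGF2, 1245, 1120 and 1136 in BGJ398, and 1120, 1296 and 1123 in BGJ398+FGF2. With FGF2 and vehicle, libraries lay below those of DMSO for Sdha and Sdhb and overlapped them for Atp5b. With both agents, libraries lay above those of DMSO+FGF2 for Sdhb and overlapped them for Sdha and Atp5b. Uqcrc1, a core subunit of complex III, had 165, 169.7 and 179 CPM in DMSO, 166, 182 and 161 in DMSO+FGF2, 187, 167 and 169 in BGJ398, and 167, 205 and 173 in BGJ398+FGF2. Uqcrfs1, its iron-sulfur subunit, had 65.2, 71.0 and 66.2 CPM in DMSO, 70.6, 74.3 and 65.9 in DMSO+FGF2, 74.2, 65.6 and 74.0 in BGJ398, and 71.9, 83.8 and 75.9 in BGJ398+FGF2. Uqcrc2, another core subunit, had 68.1, 69.2 and 73.0 CPM in DMSO, 64.2, 62.6 and 60.1 in DMSO+FGF2, 66.4, 75.3 and 78.4 in BGJ398, and 72.6, 79.6 and 69.9 in BGJ398+FGF2. The DMSO+FGF2 libraries lay below those of DMSO for Uqcrc2 and overlapped them for Uqcrc1 and Uqcrfs1. Under BGJ398 with FGF2, libraries lay above those of DMSO+FGF2 for Uqcrc2 and overlapped them for Uqcrc1 and Uqcrfs1. Atp5mpl, a small subunit of ATP synthase, had 26.9, 28.4 and 26.4 CPM in DMSO, 31.4, 29.8 and 31.3 in DMSO+FGF2, 31.003, 31.968 and 32.9 in BGJ398, and 33.2, 35.3 and 27.8 in BGJ398+FGF2. With FGF2 in DMSO, libraries lay above those of DMSO for Atp5mpl. The BGJ398+FGF2 libraries overlapped those of DMSO+FGF2 for Atp5mpl.

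Under BGJ398 the same FGF2 treatment gave no call. Of 101 members 0 passed by edgeR, DESeq2 or limma-voom, against 0% of all tested genes by edgeR. At an unadjusted p under 0.05, 5 members (4.95%) and 2.59% of all tested genes passed. Those 5 were Atp5k, mt-Co1, mt-Atp8, mt-Co3 and mt-Nd3. The libraries of the groups did not overlap for 2 members, beside 6.31% of all tested genes. Ndufa4l2 had a log2 value of 0.18 ± 0.18 and Cox7a1 one of 0.48 ± 0.32. The median was 0.01 for nuclear and 0.12 for mitochondrial members.

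The interaction tested whether the FGF2 change differed with and without the inhibitor. It was called for 1 of 101 members, against 4.24% of all tested genes (1.99% higher and 2.25% lower), and 7 members passed an unadjusted p under 0.05, beside 17.1% of all tested genes. That member was Ndufa4l2, whose FGF2 change was lower by a log2 value of 1.17 ± 0.24 under BGJ398 (−1.17, adjusted p = 0.0143 by edgeR), and it was called under all 25 other settings that could be fitted, with a highest adjusted p of 0.0459. Cox6a2, at 0.96 ± 0.31, Ndufa4, at 0.30 ± 0.13, and Cox7a1, at −0.53 ± 0.41, did not pass (adjusted p = 0.112, 0.268 and 0.576 by edgeR). A difference in their FGF2 response between the 2 backgrounds was therefore not shown.

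BGJ398 without FGF2 gave 0 calls among 101 members by edgeR, against 0.327% of all tested genes (0.151% higher and 0.175% lower), and 6 members (5.94%) passed an unadjusted p under 0.05, against 8.27% of all genes. The groups did not overlap for 14 members, beside 17.2% of all tested genes. DESeq2 called 1 member and limma-voom 0. The member called by DESeq2 was mt-Co3, at a log2 value of 0.50 (adjusted p = 0.249 by edgeR), which became 0.08 (adjusted p = 0.870) once it was summed with its near-identical nuclear copy. Cox7a1 stood at 0.530, 0.403 and 0.637 CPM in BGJ398, below all 3 DMSO libraries, with a log2 value of −1.002 ± 0.30 that did not pass (adjusted p = 0.267 by edgeR).

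With FGF2 present in both groups, BGJ398 gave more calls, among all tested genes as well as among members. Of 101 members, 10 were higher and 6 lower, beside 10.8% and 11.4% of all tested genes and 22.2% in both directions together. At an unadjusted p under 0.05, 29 members and 34.5% of all tested genes passed. This comparison shares the DMSO+FGF2 libraries with the first one, so the 2 sets of values are not independent. The higher members were Cox6a2, mt-Co3, Ndufaf4, Atp5s, Ndufa4, mt-Nd1, Ndufc1, mt-Nd6, Uqcrc2 and Sdhb, and the lower ones Cox7a1, Ndufa4l2, mt-Atp8, Atp5k, Ndufv3 and Cox5b. They came from all 5 complexes. Nuclear members had a median log2 value of 0.03 and mitochondrial ones of 0.17, with 0.00 for all genes.

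**Figure D3:**
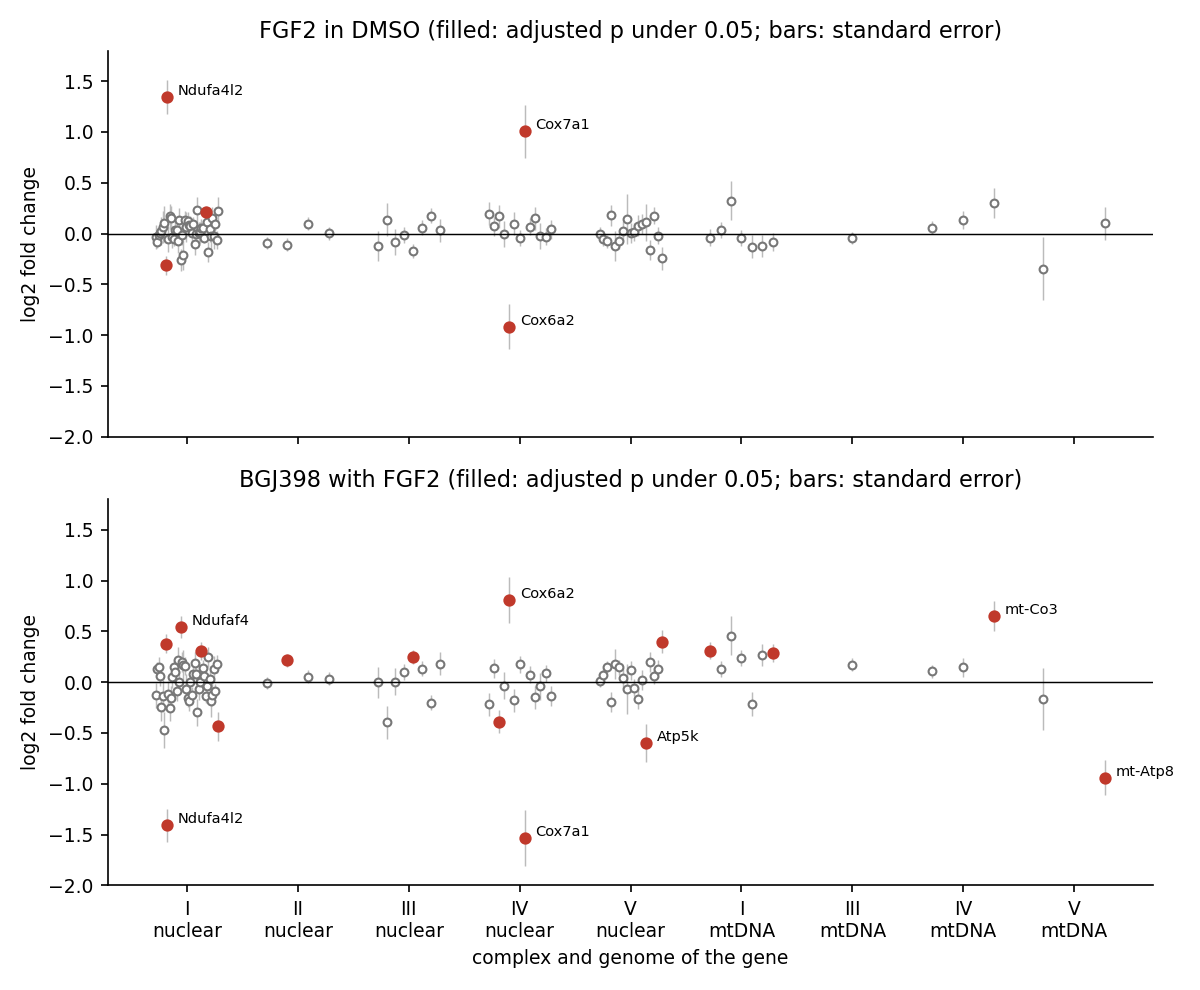
Log2 fold change of each tested member, with its standard error, for FGF2 in DMSO (top) and for BGJ398 with FGF2 (bottom), by complex and genome. Filled points passed the adjusted p of 0.05. Most members lie near 0 in both panels, with Ndufa4l2 at 1.34 above and −1.41 below.

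Cox7a1 had the lowest value, with 0.588, 0.807 and 0.805 CPM in BGJ398+FGF2 against 2.15, 2.13 and 2.09 CPM in DMSO+FGF2 (log2 −1.53 ± 0.27, adjusted p = 0.00156 by edgeR). Ndufa4l2 followed at −1.41 ± 0.17 and Ndufa4 stood at 0.38 ± 0.09, with 73.15, 78.4 and 61.7 CPM in BGJ398+FGF2, above the 3 DMSO+FGF2 libraries. Cox6a2, with 3.53, 4.68 and 3.27 CPM, was higher by 0.81 ± 0.23 and did not overlap. Ndufaf4, a factor needed to build complex I, had 23.1, 23.1 and 20.3 CPM against 15.1, 14.2 and 16.45 CPM in DMSO+FGF2 (0.54 ± 0.11, adjusted p = 0.00329 by edgeR). Of the other assembly factors in the rule, 0 of 7 passed, beside 22.2% of all tested genes, and the median of all 8 was 0.16.

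The remaining nuclear calls in this comparison were of modest size. Atp5k, the small membrane subunit e of ATP synthase, had 19.05, 24.5 and 18.4 CPM against 29.5, 37.1 and 26.9 CPM (−0.60 ± 0.18). Ndufv3, an accessory subunit of the NADH-oxidizing module, had 46.9, 54.7 and 42.2 CPM against 56.3, 73.7 and 64.2 CPM (−0.43 ± 0.14). Cox5b, a zinc-binding subunit of complex IV, had 55.2, 66.8 and 55.55 CPM against 77.7, 83.4 and 70.7 CPM (−0.39 ± 0.12). Atp5s had 6.605, 7.05 and 6.39 CPM against 5.19, 4.52 and 5.47 CPM (0.40 ± 0.11). In these 4 genes the groups did not overlap, as in 34.8% of all tested genes. Ndufc1 (0.31 ± 0.09), Uqcrc2 (0.25 ± 0.07) and Sdhb, the iron-sulfur subunit of complex II (0.22 ± 0.06), were the smallest rises, each non-overlapping as well.

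In the groups without FGF2, Ndufaf4 had 20.4, 16.5 and 17.9 CPM in DMSO and 19.2, 22.9 and 24.7 in BGJ398. Atp5k had 25.4, 31.5 and 29.6 CPM in DMSO and 38.3, 24.8 and 22.8 in BGJ398. Cox5b had 66.0, 71.9 and 67.9 CPM in DMSO and 84.1, 66.7 and 58.6 in BGJ398. For these 3 the groups without FGF2 overlapped. Ndufv3 had 53.8, 56.3 and 56.6 CPM in DMSO and 59.6, 42.7 and 39.2 in BGJ398 without FGF2. Atp5s had 5.96, 5.84 and 6.14 CPM in DMSO and 6.5954, 6.04 and 5.97 in BGJ398 without FGF2. Cox6a2 had 3.13, 4.65 and 4.49 CPM in DMSO and 4.14, 3.47 and 3.48 in BGJ398 without FGF2. These 3 overlapped as well. Ndufc1, an accessory subunit of complex I, had 32.2, 33.8 and 35.4 CPM in DMSO, 33.2, 38.0 and 34.2 in DMSO+FGF2, 38.1, 37.9 and 40.8 in BGJ398, and 43.2, 49.0 and 38.5 in BGJ398+FGF2. With FGF2 and vehicle, libraries overlapped those of DMSO for Ndufc1. With both agents, libraries lay above those of DMSO+FGF2 for Ndufc1.

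The calls of Cox7a1, Ndufa4l2, Ndufaf4, mt-Atp8 and mt-Co3 held under all 26 other settings. Those of Atp5k and Cox5b were lost without DMSO+FGF2 replicate 1 or 2 or BGJ398+FGF2 replicate 1 or 3. Ndufa4, mt-Nd1, Cox6a2, Sdhb, Ndufc1, mt-Nd6, Uqcrc2 and Ndufv3 lost theirs without DMSO+FGF2 replicate 3, and Atp5s without DMSO+FGF2 replicate 2. BGJ398+FGF2 replicate 2 was needed for Atp5s, Cox6a2, Ndufc1, Sdhb, Uqcrc2 and mt-Nd6. With length-scaled TPM, the calls of Atp5k, Atp5s, Cox5b, Ndufc1, Uqcrc2 and mt-Nd1 were lost. Fitting only the groups compared lost those of Atp5s, Cox6a2, Ndufc1, Sdhb, Uqcrc2 and mt-Nd6. Ndufv3 also lost its call without DMSO replicate 1, 2 or 3, which are not in this comparison. Further settings lost some of these calls too.

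The called members Ndufaf4 and Atp5k moved in opposite directions and both carry, near their start sites, the exact 10-base site of NRF1, a factor known to bind promoters of respiratory genes. Their promoters are shown for that reason, 5′ to 3′ on the gene's strand, from RefSeq on build GRCm38.p6 (chr4:24897833-24898132, plus strand, for Ndufaf4 and chr5:108434350-108434649, minus strand, for Atp5k). Capitals mark the NRF1 site, a 10-base palindrome, and, in Atp5k, also the ETS letters CCGGAAG and the hypoxia core letters GCGTG, each read on either strand.
Ndufaf4: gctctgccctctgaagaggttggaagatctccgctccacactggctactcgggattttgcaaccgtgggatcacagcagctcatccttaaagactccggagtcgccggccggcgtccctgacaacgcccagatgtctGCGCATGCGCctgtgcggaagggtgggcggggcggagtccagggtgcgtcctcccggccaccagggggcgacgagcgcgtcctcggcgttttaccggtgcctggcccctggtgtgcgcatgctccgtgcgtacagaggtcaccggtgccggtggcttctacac
Atp5k: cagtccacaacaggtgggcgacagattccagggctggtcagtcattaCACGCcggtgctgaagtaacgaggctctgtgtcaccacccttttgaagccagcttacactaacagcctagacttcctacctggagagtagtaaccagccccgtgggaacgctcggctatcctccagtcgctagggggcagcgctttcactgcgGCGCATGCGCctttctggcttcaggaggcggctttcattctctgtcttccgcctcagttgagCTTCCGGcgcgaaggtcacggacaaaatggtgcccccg
The 300-base windows, from 250 bases before to 50 after the start, were found for 74 of 94 nuclear members (79 promoters). The NRF1 letters occurred in 7 of these 79 (8.86%) and in 0.971% of all 32851 promoters. The ETS letters occurred in 22.8% against 8.86%, the YY1 site in 6.33% against 0.633%, and a hypoxia core (ACGTG or GCGTG) in 65.8% against 43.8%. The member promoters also had a higher median GC content, 57.7% against 52.7%, and 19 against 7 CpG pairs. The other NRF1-bearing members were Atp5g2, Cox6a1, Ndufa11, Ndufaf5 and Uqcrc1. None of these 5 passed the test in any of the 5 comparisons. A match is a description of letters and not a bound site.

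The mitochondrially encoded genes were described with 2 features of their sequence in view. The first is overlap. The gene mt-Atp8 has 204 bases, of which the last 43 (21.1%) are also the first bases of mt-Atp6, in another reading frame. Both are shown, mt-Atp8 whole and mt-Atp6 for its first 100 bases, with the shared 43 bases in capitals.
mt-Atp8: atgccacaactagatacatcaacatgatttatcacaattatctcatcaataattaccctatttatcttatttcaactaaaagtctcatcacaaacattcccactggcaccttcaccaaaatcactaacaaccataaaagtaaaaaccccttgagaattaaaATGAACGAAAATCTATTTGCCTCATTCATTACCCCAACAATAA
mt-Atp6: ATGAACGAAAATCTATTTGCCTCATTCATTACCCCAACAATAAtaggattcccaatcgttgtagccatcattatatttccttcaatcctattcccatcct
A read from the shared bases can be given to either gene. The effective length that the quantification gave mt-Atp8 was 18 to 19 bases, so its TPM depends strongly on that small divisor, and its counts are used here.

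The second feature is copies. Nuclear pseudogenes hold near-identical copies of several mitochondrial genes, so that reads cannot be told apart: 100% of the 31-base stretches of mt-Co2, 99.9% of mt-Co3, 99.5% of mt-Atp6, 98.9% of mt-Nd4l and 98.1% of mt-Nd3 also occurred in another gene. The pseudogene Gm10925 was identical to mt-Atp6 over 678 bases, Gm28661 to mt-Co2 over 681 and Gm28437 to mt-Co3 over 783. Gm28438 differed from mt-Nd3 at 1 base, T3C (the base of mt-Nd3 first, counted from 1 at its 5′ end), and the start of both is shown with that base in capitals.
mt-Nd3: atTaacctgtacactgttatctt
Gm28438: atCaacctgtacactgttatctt
The quantification split the reads of such pairs unevenly between libraries. The copy's share of the pair ranged from 14.9% to 80.5% for mt-Atp6, from 17.8% to 68.2% for mt-Co3, from 40.7% to 75.4% for mt-Nd3 and from 2.77% to 25.1% for mt-Co2. In the third DMSO library mt-Atp6 had 1429 CPM and in the other 2 it had 690 and 589 CPM, while the pair summed to 1678 CPM there and to 1806 and 1699 CPM in the others.

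**Figure D4:**
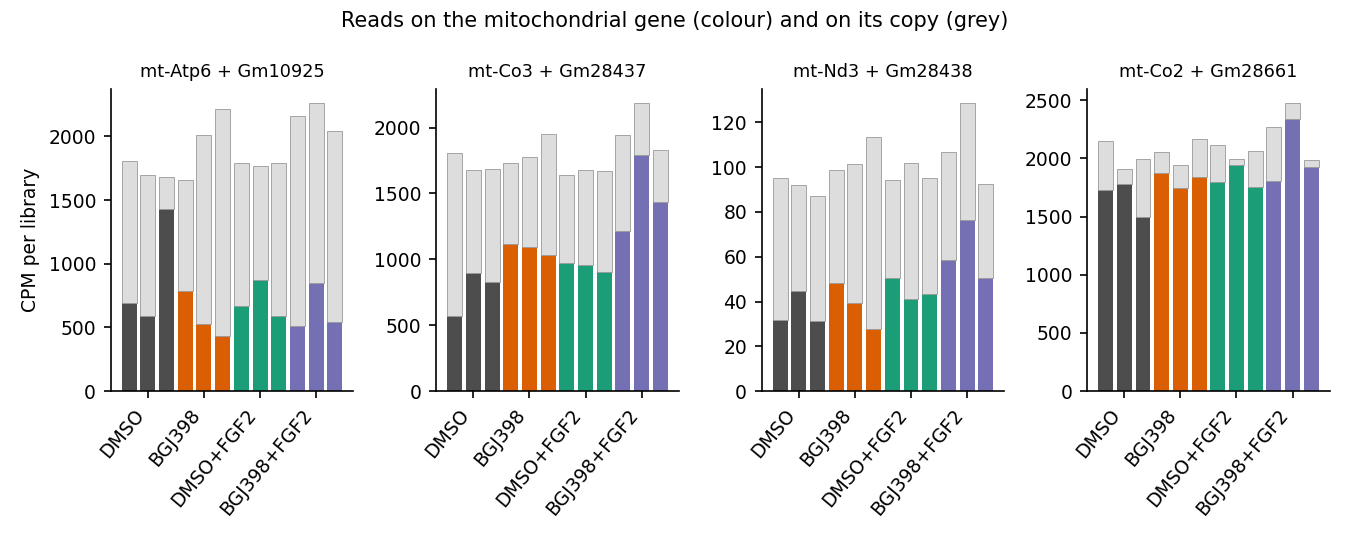
CPM on mt-Atp6, mt-Co3, mt-Nd3 and mt-Co2 (coloured by group, in the order DMSO, BGJ398, DMSO+FGF2, BGJ398+FGF2) and on their nuclear copies (grey, stacked) in each of the 12 libraries. The coloured parts vary between libraries of a group, whereas the stacked totals are more even, as in the 3 DMSO libraries of mt-Atp6 (1678 to 1806 CPM).

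All 13 genes with their copies summed to 21001, 19123 and 19481 CPM in DMSO, 20036, 19772 and 19910 in DMSO+FGF2, 19011, 21078 and 22067 in BGJ398, and 23334, 23458 and 20798 in BGJ398+FGF2. Under BGJ398 with FGF2, these CPM sums lay above DMSO+FGF2 and overlapped BGJ398. In TPM, without the copies, the 13 genes summed to 60070, 55504 and 58448 against 55546, 54170 and 54664, and these groups overlapped. Before copies were summed, mt-Co3, mt-Nd1 and mt-Nd6 rose and mt-Atp8 fell in BGJ398+FGF2 against DMSO+FGF2, which is 4 of 13. mt-Co3, a core subunit of complex IV, had 1216, 1794 and 1434 CPM against 972, 956 and 900 CPM (0.65 ± 0.15, adjusted p = 0.00656 by edgeR). Summed with its copy it had 1944, 2183 and 1832 CPM against 1643, 1680 and 1668 CPM, and the log2 change became 0.26 ± 0.07 (adjusted p = 0.0152). mt-Atp6 went from −0.17 ± 0.31 (adjusted p = 0.750) to 0.27 ± 0.08 (adjusted p = 0.0300 by edgeR) once Gm10925 was added. Its sums were 2164, 2260 and 2045 CPM against 1793, 1765 and 1791 CPM. With copies summed, 11 members were higher and 6 lower, beside 22.2% of tested genes (10.8% higher and 11.4% lower). The summation was chosen after seeing the data.

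Some genes had no near-identical copy. mt-Nd1, a subunit of the membrane arm of complex I with no shared stretch, had 1285, 1383 and 1221 CPM against 1088, 1039 and 1005 CPM (0.31 ± 0.08, adjusted p = 0.0172 by edgeR). Its call was lost with length-scaled TPM, at a log2 value of 0.14 (adjusted p = 0.109 by edgeR). mt-Nd6, encoded on the other strand from the rest, had 302, 320 and 260 CPM against 234, 260 and 228 CPM (0.29 ± 0.09). Whether counting used the strand is not given in the sources used here. mt-Cytb had 0.17 ± 0.06 and mt-Nd2 0.13 ± 0.08, which did not pass. mt-Atp8 was lower in BGJ398+FGF2, at 10.2, 7.85 and 7.77 CPM against 16.55, 17.7 and 15.5 CPM (−0.94 ± 0.17, adjusted p = 0.0018 by edgeR), unlike its neighbour mt-Atp6. mt-Atp8 had 3587 reads in all, and its call held under all 26 other settings. These settings all start from the same quantification. They could therefore not test how the effective length of 18 to 19 bases or the bases shared with mt-Atp6 bear on its counts. With BGJ398 in the absence of FGF2, and with FGF2 in DMSO, 0 of 13 mitochondrial genes were called by edgeR, beside 0.327% and 13.4% of all tested genes. In bulk RNA, fewer cells of a kind and less RNA per cell cannot be told apart.

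mt-Nd1 had 1161, 1035 and 1032 CPM in DMSO and 1023, 1218 and 1310 in BGJ398 without FGF2. mt-Nd6 had 276, 244 and 244 CPM in DMSO and 242, 285 and 291 in BGJ398 without FGF2. mt-Atp8 had 12.5, 16.6 and 17.2 CPM in DMSO and 15.4, 11.7 and 9.35 in BGJ398 without FGF2. These 3 genes overlapped between DMSO and BGJ398. mt-Co3 had 573, 893 and 828 CPM in DMSO and 1115, 1096 and 1030 in BGJ398 without FGF2. For mt-Co3 the BGJ398 libraries lay above those of DMSO, and no test by edgeR was passed. Summed with its copy it had 1804, 1678 and 1688 CPM in DMSO and 1730, 1779 and 1950 in BGJ398, and the groups overlapped.

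The other mitochondrial genes, without their copies, gave the following. mt-Nd2 had 877, 776 and 759 CPM in DMSO, 833, 811 and 828 in DMSO+FGF2, 760.3, 897 and 946 in BGJ398, and 951, 898 and 863 in BGJ398+FGF2. mt-Nd4 had 1875, 1629 and 1682 CPM in DMSO, 1673, 1662 and 1699 in DMSO+FGF2, 1564, 1885 and 1963 in BGJ398, and 2138, 1941 and 1859 in BGJ398+FGF2. mt-Nd5 had 1583, 1456 and 1484 CPM in DMSO, 1434, 1301 and 1417 in DMSO+FGF2, 1311, 1745 and 1760 in BGJ398, and 1889, 1468 and 1649 in BGJ398+FGF2. The DMSO+FGF2 libraries lay below those of DMSO for mt-Nd5 and overlapped them for mt-Nd2 and mt-Nd4. The BGJ398+FGF2 libraries lay above those of DMSO+FGF2 for mt-Nd2, mt-Nd4 and mt-Nd5. In TPM these groups overlapped for all 3, and the mt-Nd2 mean was 2872 TPM in BGJ398+FGF2 and 2902 in DMSO+FGF2. mt-Nd3 had 31.7, 44.5 and 31.3 CPM in DMSO, 50.3, 41.2 and 43.2 in DMSO+FGF2, 48.1, 39.3 and 27.8 in BGJ398, and 58.6, 76.2 and 50.7 in BGJ398+FGF2. mt-Nd4l had 172, 178 and 167 CPM in DMSO, 168, 145 and 161 in DMSO+FGF2, 141, 141 and 163 in BGJ398, and 166, 109 and 131 in BGJ398+FGF2. mt-Cytb had 2089, 1908 and 1998 CPM in DMSO, 1978, 1906 and 1926 in DMSO+FGF2, 1933, 2105 and 2167 in BGJ398, and 2305, 2219 and 2024 in BGJ398+FGF2. With FGF2 in DMSO, libraries overlapped those of DMSO for mt-Nd3, mt-Nd4l and mt-Cytb. With both agents, libraries lay above those of DMSO+FGF2 for mt-Nd3 and mt-Cytb and overlapped them for mt-Nd4l. The groups overlapped for mt-Cytb in TPM, and for mt-Nd3 summed with its copy, at 106.6, 128.5 and 92.3 CPM against 94.3, 101.8 and 95.1. mt-Co1 had 7099, 6498 and 6647 CPM in DMSO, 6968, 7083 and 7010 in DMSO+FGF2, 6476, 6947 and 7012 in BGJ398, and 7803, 8036 and 6829 in BGJ398+FGF2. mt-Co2 had 1726, 1782 and 1494 CPM in DMSO, 1795, 1941 and 1750 in DMSO+FGF2, 1874, 1744 and 1844 in BGJ398, and 1805, 2336 and 1927 in BGJ398+FGF2. With FGF2 and vehicle, libraries overlapped those of DMSO for mt-Co1 and mt-Co2. Under BGJ398 with FGF2, libraries overlapped those of DMSO+FGF2 for mt-Co1 and mt-Co2.

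Nuclear members could share reads with a pseudogene. Atp5g2, which encodes the ring subunit c, had 60.5 TPM, and its pseudogene Gm10175 held 91.8% of the reads of the pair, so that Atp5g2 with its copy reached 904 TPM. Ndufb4 had 35.4 TPM, and 291 TPM with the TPM of its copies added, which held 56.8% of the reads. In reads over the 12 libraries, Ndufb4 had 4126 and its copies 5424, a smaller step than in TPM, which divide by each gene's own length. The places of Atp5g2 and Ndufb4 near the bottom of their complexes thus depended on how such reads were assigned and on these lengths. Neither gene passed the test in FGF2 in DMSO or in BGJ398 with FGF2, alone or summed. In all, 25 members, mitochondrial ones included, had 34 copies by a loose rule. It counted any other gene with at least 50% of its 31-base stretches found in the member. Likeness went down to 52.6% (Gm2962, for Uqcrb), some copies held 0 reads, and Gm11273 and Gm20538 are annotated as protein-coding. Separately, 9 members shared over 50% of their 31-base stretches with another gene.

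Most members are short, and libraries differed in how deviations ran with transcript length. The median length was 729 bases for members and 2581 for tested genes, and 70.3% of members against 8.52% of tested genes were under 1000 bases. The slope of a library's log2 CPM deviation per doubling of length was 0.04, 0.01 and 0.02 in DMSO, −0.01, −0.10 and −0.01 in DMSO+FGF2, −0.05, 0.04 and 0.05 in BGJ398, and 0.04, −0.11 and 0.08 in BGJ398+FGF2. The nuclear members' median deviation was −0.06, 0.02 and −0.01, then −0.04, 0.10 and −0.07, then 0.15, −0.06 and −0.05, and −0.07, 0.20 and −0.11 in the same order. The 3 libraries with the most negative slopes, richest in short transcripts, were DMSO+FGF2 replicate 2, BGJ398 replicate 1 and BGJ398+FGF2 replicate 2, and these were also the 3 with the highest nuclear medians. No DMSO library was among them.

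**Figure D5:**
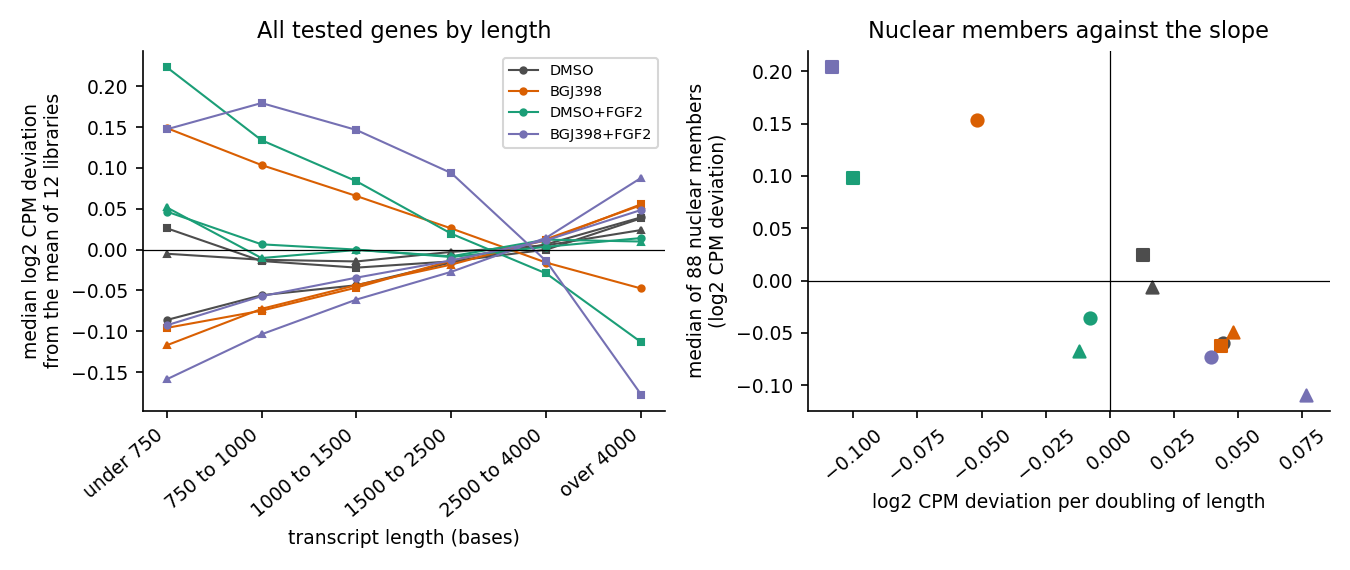
Left, the median log2 CPM deviation from the mean of the 12 libraries, in 6 length bins, with 1 line per library coloured by group. These medians cover tested genes other than members and ribosomal protein genes, although the panel title reads all tested genes. Right, the median deviation of the 88 nuclear members against the library's slope on length, with circle, square and triangle for replicates 1 to 3; the 3 libraries with slopes of −0.05 or below have the highest medians (0.10 to 0.20).

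Other genes of the same length gave the values to set beside these. With FGF2 in DMSO, the 404 other tested genes under 750 bases had a median log2 value of 0.11 and the 47 nuclear members of that length one of 0.04. In BGJ398 with FGF2 the medians were −0.14 and -0.00. Ribosomal protein genes, also short, had 0.11 and −0.16.

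Counts of calls therefore depended on how length was treated. With offsets that remove a smooth trend on length from each library, FGF2 in DMSO gave 2 members higher and 15 lower (19.2% of all tested genes called, 10.5% higher and 8.75% lower), and the nuclear median moved from 0.02 to −0.11. Without the 3 libraries richest in short transcripts, a setting chosen after seeing the data, it gave 4 higher and 8 lower (20.7% of genes called, 10.9% higher and 9.75% lower). Atp5l, Cox6a2, Ndufa4, Ndufs4, Sdhb, Uqcr10 and Uqcrc2, 7 genes in all, were lower under both, and 2 of them, Ndufa4 and Cox6a2, were lower in the main test too. In the main test Ndufs4 had −0.18 ± 0.10, Atp5l −0.16 ± 0.10 and Uqcr10 −0.12 ± 0.15, none of which passed.

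For BGJ398 with FGF2 the split of the calls turned with the setting. It was 10 higher and 6 lower in the main test, 40 and 7 with length offsets (30.8% of genes called, 15.8% higher and 14.9% lower) and 11 and 26 without those 3 libraries (29.3%, 13.8% higher and 15.4% lower). Leaving out BGJ398+FGF2 replicate 2 alone gave 5 and 20 (26.4%, 12.7% higher and 13.7% lower). Leaving out BGJ398+FGF2 replicate 3 gave 17 and 3 (18.9%, 9.42% higher and 9.52% lower), and leaving out DMSO+FGF2 replicate 3 gave 3 and 5 (15.6%, 7.28% higher and 8.29% lower). The split between higher and lower members thus changed when a single library was left out. The genes higher under both length offsets and the smaller set of libraries were 10, namely Ndufa4, Ndufaf4, Ndufc1, Sdhb, Uqcrc2, Uqcrq, mt-Co3, mt-Nd1, mt-Nd4 and mt-Nd6. Those lower under both included Atp5k, Cox5b, Cox7a1, Ndufa4l2, Ndufv3 and mt-Atp8. BGJ398 without FGF2 went from 0 calls to 4 higher and 7 lower without the 3 libraries (5.79% of genes called, 2.07% higher and 3.72% lower).

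Genes around the complexes were read from lists chosen with earlier results of these data known, so the counts below are descriptions. Of 24 glycolysis and hypoxia genes 18 rose and 0 fell with FGF2 in DMSO, beside 7.57% of tested genes higher and 5.82% lower. Their median was 0.48, and among them were Car9 (1.52 ± 0.12), Ndrg1 (0.82 ± 0.09), Gpi1 (0.73 ± 0.10) and Gapdh (0.73 ± 0.11). In BGJ398 with FGF2, 19 of these 24 were lower and 0 higher, beside 11.4% and 10.8% of tested genes, with a median of −0.53. Pdk1, a kinase that restrains pyruvate entry to mitochondria, rose by 0.32 ± 0.09 and then stood at −0.43 ± 0.09. Hif1a, a subunit of the hypoxia-responsive factor, rose by 0.21 ± 0.06 with FGF2 (adjusted p = 0.0344 by edgeR) and had −0.07 ± 0.06 in BGJ398 with FGF2, which did not pass. The mitophagy receptors Bnip3 and Bnip3l rose with FGF2, by 0.52 ± 0.13 and 0.32 ± 0.06.

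Among genes that build and supply the respiratory chain, few were called with FGF2 in DMSO, where 7.57% of tested genes were higher and 5.82% lower. Of 78 mitochondrial ribosome genes 0 passed with FGF2 in DMSO, and of 28 genes of mitochondrial DNA expression only Fastkd1 did, falling by 0.65 ± 0.14, while Tfam, the mitochondrial transcription and packaging factor, had −0.04 ± 0.06. In BGJ398 with FGF2, where 10.8% of tested genes were higher and 11.4% lower, 6 of those 78 were higher and 1 lower, and 5 of the 28 were higher, including Tfb2m, a mitochondrial transcription factor, at 0.36 ± 0.07 and Lrpprc, which stabilizes mitochondrial messages, at 0.20 ± 0.05. Of 25 genes of the tricarboxylic acid cycle and pyruvate entry, 8 were higher and 1 lower there, among them Fh1 (0.35 ± 0.07). With FGF2 in DMSO 1 of these 25 rose and 1 fell (Suclg2, −0.30 ± 0.06), near the shares of all tested genes.

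Among electron and nucleotide carriers, 3 of 7 were higher in BGJ398 with FGF2, beside 10.8% of tested genes. Cycs, which encodes cytochrome c, had 0.39 ± 0.10, and Slc25a5, an ADP and ATP carrier, 0.36 ± 0.06 after −0.21 ± 0.06 with FGF2 in DMSO. Cyc1, the cytochrome c1 subunit of complex III, had 0.02 ± 0.07 and 0.06 ± 0.07 in the 2 comparisons, neither past the test. Of 22 complex IV assembly factors 0 passed with FGF2 in DMSO, beside 7.57% of tested genes higher and 5.82% lower. In BGJ398 with FGF2, 3 of them (Higd1a, Pet100 and Cox17) were lower, beside 11.4% of tested genes. Of 16 tested regulators of mitochondrial biogenesis, 1 rose (Yy1, 0.17 ± 0.05) and 1 fell (Prkaa2, −1.07 ± 0.31) with FGF2 in DMSO. In BGJ398 with FGF2, 2 were higher and 2 lower. These counts were near the shares of all tested genes in each comparison. Ppargc1a, a coactivator of mitochondrial biogenesis, was too low to test, with at most 0.441 CPM in a library.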

How the data were processed

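RNA-seq of 12 libraries in 4 groups of 3 was used. The authors deposited, per transcript, Salmon estimated counts, TPM and effective length, per the file headers. GRCm39 is named per the submitters' processing notes. Salmon's version, use of strand and bias settings are not stated here. Transcripts were summed to genes by transcript ID with GENCODE M21 names (114656 of 116178 matched; 0.499% to 0.641% of reads were not), and the estimated counts were rounded to whole numbers. Genes were filtered by group with filterByExpr and scaled by TMM. edgeR 4.0.16 (R 4.3.3) fitted 4 group means by quasi-likelihood, and p-values were Benjamini-Hochberg adjusted over 12542 genes with a threshold of 0.05. DESeq2 1.42.0 and limma 3.58.1 were alternatives, with other scalings, filters, length offsets, left-out libraries and summed copies. The test was checked on simulated counts. These held no length trend between libraries and no reads shared between genes and copies, so the check could not bear on either. Values in every library were given for the 6 highest and 6 lowest called members of each comparison, the member of smallest p per complex, the paired isoforms, core genes and mitochondrial genes; per list, up to 4 called genes of smallest p and a few fixed regulators were named. Suclg2, Lrpprc, Uqcrh, Ndufs4, Atp5l and Uqcr10, and further called members, were named after their values were seen. Members and lists were chosen with earlier results of these data known. Same-numbered libraries did not deviate together (18 pairs, r from −0.15 to 0.24, 2 above 0.1), so the numbers were not treated as pairs. Reads sharing 31-base stretches cannot be assigned to 1 gene. The values of 1 called member are not reported here.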

Additional observations from a re-analysis of the deposited data

Results flagged for a closer look

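The FGF2 change of Ndufa4l2 differed between the DMSO and BGJ398 backgrounds by −1.17 (log2), by the edgeR test of the interaction. It was 1.34 in DMSO and 0.18 under BGJ398.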

How the results depend on the processing

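With FGF2 in DMSO, 5 members were called (13.4% of all tested genes); the count was 9 with only the groups compared (19.6%), 3 with length-scaled TPM (9.05%), 17 with length offsets (19.2%), 19 with offsets fitted without members and ribosomal protein genes (19.2%), 15 with the replicate block and offsets (17.4%), and 12 without the 3 libraries richest in short transcripts (20.7%). The nuclear median was −0.11, −0.12 and −0.11 under those 3 offset settings. Cox8a reversed to −0.14, −0.17 and −0.14 under them, and mt-Atp8 to −0.37 and −0.31 under the last 2. BGJ398 without FGF2 gave 1 call with DESeq2 (1.22%), 1 with no low-count filter (0.428%), 1, 1 and 2 with the offset settings (1.18%, 1.17% and 0.805%) and 11 without the 3 libraries (5.79%). BGJ398 with FGF2 gave 10 with length-scaled TPM (14.4%), 47, 48 and 46 with the offset settings (30.8%, 30.6% and 28.6%) and 37 without the 3 libraries (29.3%), and the interaction 5, 5 and 6 with the offset settings (7.92%, 7.89% and 6.82%), whose nuclear interaction medians were 0.11, 0.12 and 0.11. The mitochondrial median was −0.020 for BGJ398 without FGF2 and 0.046 for BGJ398 with FGF2 with length-scaled TPM, 0.28, 0.28 and 0.28 for the latter with offsets, and 0.016 (FGF2 under BGJ398) and 0.042 (interaction) without the 3 libraries. mt-Atp6 became 0.27 in BGJ398 with FGF2 once summed with its copy. The causes were not tested.

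With CPM in place of TPM, the log2 ratio of summed levels for FGF2 in DMSO was 0.055 (complex I, nuclear), −0.014 (II), −0.045 (III, mitochondrial), 0.088 (IV, nuclear), 0.093 (IV, mitochondrial), −0.010 (V, nuclear), 0.027 (all nuclear) and 0.012 (all mitochondrial). For BGJ398 with FGF2 it was 0.057 (II), −0.10 (IV, nuclear), 0.18 (IV, mitochondrial) and 0.18 (all mitochondrial). For BGJ398 without FGF2 it was 0.036 (II) and 0.050 (all mitochondrial), and for FGF2 under BGJ398 0.19 (IV, mitochondrial) and 0.14 (all mitochondrial). Leaving out 1 library gave 1 to 6 calls for FGF2 in DMSO (8.04% to 17.8% of tested genes) and 8 to 25 for BGJ398 with FGF2 (15.4% to 26.4%), and mitochondrial medians of 0.036 to 0.18 (FGF2 under BGJ398) and 0.077 to 0.18 (interaction). With the replicate block alone the counts were 5, 0, 0, 16 and 1, as without it. Over the alternatives, 22 results on single genes that had passed the threshold did so in 494 of 571 fits and not in 77. Of all results on single genes, 5357 stayed on the same side of the threshold, most of them uncalled, 107 gained a call and 6 reversed. Low counts limit Cox7a1, Cox6a2 and mt-Atp8.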
